A study of Homo sapiens with 32 samples.

Results

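The 9 genes described here move zinc and copper across membranes or carry copper inside the cell, and they were followed in HepG2 cells exposed to silver nanoparticles. They are the zinc exporter SLC30A1, its relative SLC30A10, the importers SLC39A10 and SLC39A14, the copper importer SLC31A1, the copper pump ATP7B, and the copper chaperones CCS, COX17 and ATOX1. They were chosen by name, and all 9 had a row among the 13133 genes of the deposited table. Of these, 8 reached a mean of 5 normalized reads over all libraries and were tested among 9324 genes. SLC39A10, with a mean of 1.74, did not, and it entered only a fit without that filter.

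HepG2 cells are an established human line that came from a hepatocellular carcinoma. The cells stood in medium alone (NoNP in the labels) or were given silver particles at 1.2 ug/mL with 1 of 3 surface coatings: branched polyethylenimine (here bPEI), polyethylene glycol (here PEG), or citrate. Cells were lysed at 6, 12 and 24 h, and transcripts were read by TempO-Seq, in which detector oligonucleotides are joined on their target RNA and counted by sequencing. There were 32 libraries in 12 groups of exposure and time, 8 groups of 3 and 4 groups of 2. The groups of 2 were PEG and citrate at 6 h and medium and bPEI at 24 h. No group was given the particle's coating without silver, or silver without a particle, so the groups compare coated particles with medium only.

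Cells import zinc through the SLC39 (ZIP) family and export it, or load it into organelles, through the SLC30 (ZnT) family. The transcription factor MTF1 senses zinc and, by binding metal response elements, drives SLC30A1 and the metallothioneins, small proteins that bind zinc, copper and silver. Copper enters through SLC31A1 and is handed to chaperones that deliver it to their client enzymes, and in liver cells ATP7B loads it onto ceruloplasmin or exports it to bile. Silver as the ion resembles copper in its monovalent state and is known to use copper carriers.

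Promoter sequence is shown for the exporter that carried the coating difference, for the exporter with the widest range, and for a metallothionein as the reference for metal response elements. Each run is the 250 bases before a RefSeq gene start on GRCh38.p14, written 5′ to 3′ on the gene's own strand, with capitals marking TGCACNC or TGCGCNC, the core of the element, on either strand. Overlapping matches share capitals. The windows are chr1:211579162-211579411 on the minus strand for SLC30A1, chr1:219959099-219959348 on the minus strand for SLC30A10, and chr16:56608334-56608583 on the plus strand for MT2A.
SLC30A1: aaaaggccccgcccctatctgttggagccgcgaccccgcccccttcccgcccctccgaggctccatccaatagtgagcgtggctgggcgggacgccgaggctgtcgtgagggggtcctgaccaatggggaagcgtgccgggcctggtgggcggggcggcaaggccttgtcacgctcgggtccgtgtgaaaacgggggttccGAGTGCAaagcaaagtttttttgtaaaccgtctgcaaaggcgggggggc
SLC30A10: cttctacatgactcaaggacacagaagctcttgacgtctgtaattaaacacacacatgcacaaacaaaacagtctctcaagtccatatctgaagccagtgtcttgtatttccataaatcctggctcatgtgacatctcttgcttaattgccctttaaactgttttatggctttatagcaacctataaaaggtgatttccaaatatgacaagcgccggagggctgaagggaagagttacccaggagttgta
MT2A: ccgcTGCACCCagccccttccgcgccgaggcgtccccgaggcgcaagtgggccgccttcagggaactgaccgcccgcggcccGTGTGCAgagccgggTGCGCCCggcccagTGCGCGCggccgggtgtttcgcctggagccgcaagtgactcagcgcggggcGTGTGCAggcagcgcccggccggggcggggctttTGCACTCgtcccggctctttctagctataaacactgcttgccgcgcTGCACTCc
The SLC30A1 window held 1 match, on the opposite strand, with its first base 49 bases upstream of the start. The SLC30A10 window held none, and the MT2A window held 7. Another SLC30A10 window, chr1:219928558-219928807 on the minus strand, is not printed and held none either. Over 35116 windows of 250 bases, 24.8% held at least 1 match and 6.48% at least 2, so 1 match is common. Of 13 windows searched for 8 members, 6 held a match. They belonged to 5 members, some with more than 1 window: SLC30A1, ATP7B, CCS, COX17 and ATOX1. SLC30A10, SLC39A10 and SLC31A1 had none, and SLC39A14 was not searched. Among metallothioneins, the RefSeq promoter table held MT1B, MT1H, MT1X, MT2A and MT4, each with 3 to 8 matches. A match describes letters, not binding.

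Values below are normalized reads, that is reads divided by 1 size factor per library, and ± gives the SD among a group's libraries. Differences are on the scale of log2(value + 1), and adjusted p-values come from limma with Benjamini-Hochberg adjustment over 9324 genes within each comparison, called under 0.05. Levels are compared within a gene only. Total reads ran from 1313855 to 6735072 per library with a median of 3373855, and a count of 0 allowed up to 1.38 to 7.15 normalized reads, counting error only. The medium libraries at 24 h stood farthest apart, with 2.70 times the mean residual variance, and bPEI replicate B at 6 h also lay away from its group for several members. All 10 hepatocyte markers were present, summing to between 158900 and 396440 normalized reads. Of 5 fibroblast, 4 endothelial and 5 leukocyte markers, 3, 1 and 3 had a row, and each list's summed level ran from 45.5 to 411, from 0 to 27.1 and from 1872 to 8326. PTPRC, CD3E, DCN, LUM, CDH5, VWF and KDR were not analysed here. The labels do not say whether replicates were separate cultures. The p-values therefore reflect no more than the spread among these libraries, which may be technical. In bulk lysates, fewer cells of a type and less RNA per cell cannot be told apart.

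Few of these genes were called with coated particles against medium at the same time. Over 9 comparisons of a coating with medium, 3 of 72 tests of members passed, against 2.31% of tests over all genes. SLC30A10 was higher with bPEI at 24 h, and SLC31A1 and SLC39A14 were lower with citrate at 12 h. SLC39A14 passed the filter on low values only through its medium libraries of 12 h, so its call is not independent of that filter. The 3 coatings were each compared with the same medium libraries at a given time, so their differences are not independent of each other. At an unadjusted p under 0.05, 19 of the 72 tests passed. The share of all tested genes at that threshold is not given here, so this count is not read as a result about these genes.

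At 6 h no member passed with any coating, where 2.01% of all tested genes were called with bPEI, 0.0215% with PEG and 0.279% with citrate. At 12 h none passed with bPEI or PEG, where 0.0965% and 0.654% of all genes were called, and 2 passed with citrate, where 6.12% were. At 24 h SLC30A10 passed with bPEI, where 4.55% of all genes were called, and none passed with PEG or citrate, where 2.83% and 4.2% were. With citrate at 12 h, 7 of the 8 tested members had a difference below 0, with a median log2 difference of -0.57, against -0.02 over all tested genes, of which 4778 lay below 0. With bPEI at 24 h, 5 of the 8 lay above 0, with a median of 0.07 against 0.10 over all genes.

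Groups without overlap were common in libraries this few. At 6 h a coating and medium did not overlap in 5 of the 8 tested members with each coating, beside 24.8%, 32.1% and 34.9% of all tested genes with bPEI, PEG and citrate. At 12 h the counts were 5, 3 and 5, beside 19.1%, 20.8% and 32.3%, and at 24 h 2, 2 and 4, beside 36.4%, 21.9% and 23.2%.

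**Figure D1:**
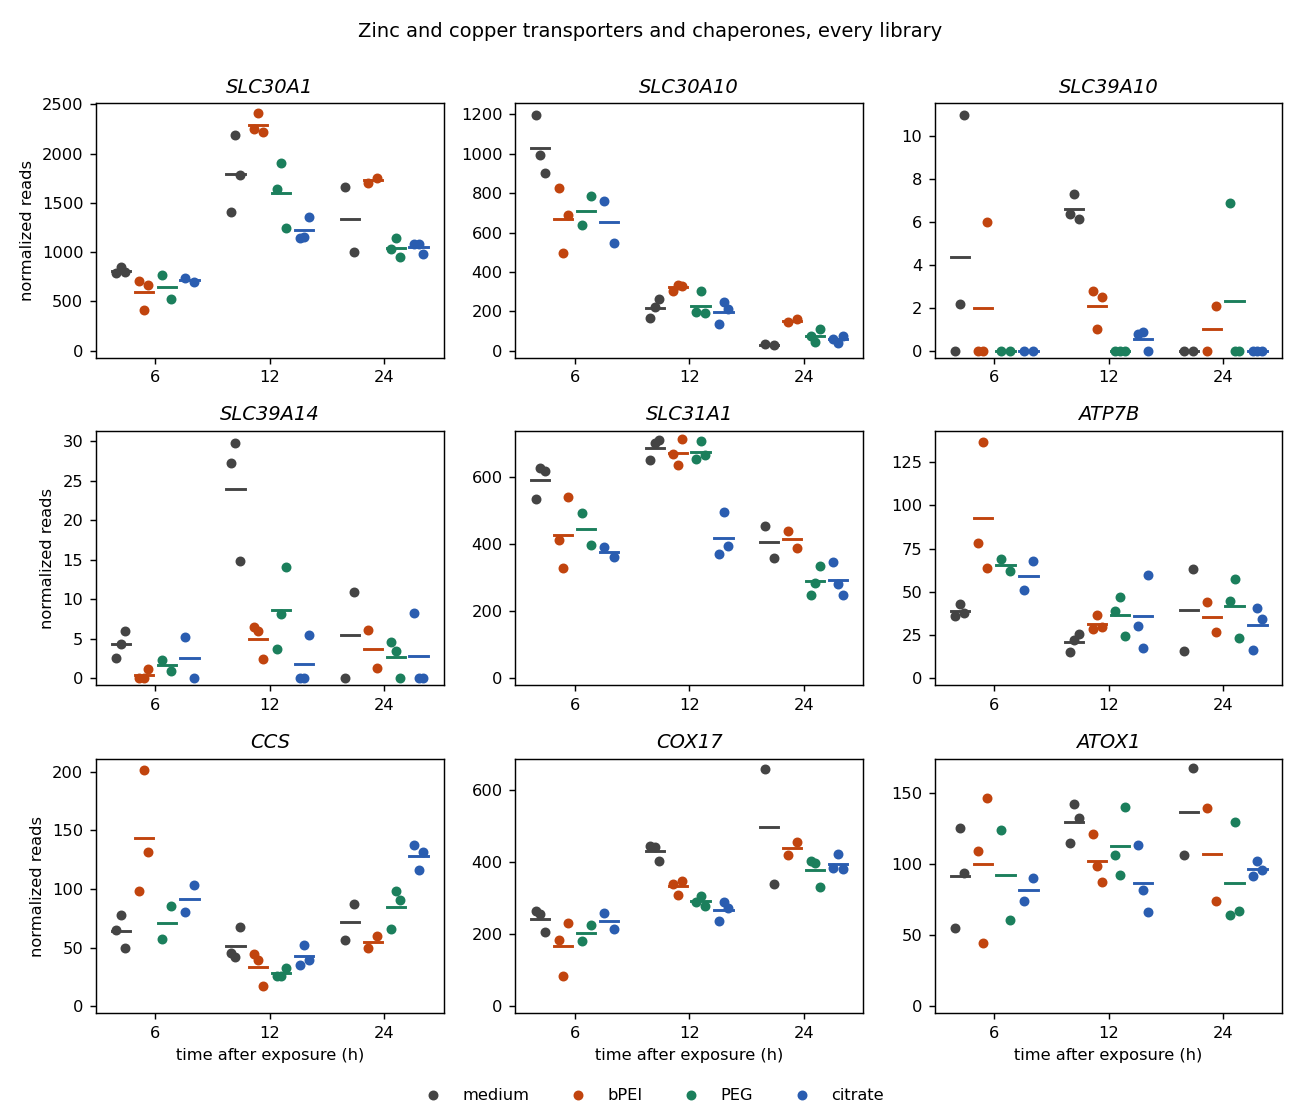
Normalized reads (vertical axis, a linear scale of its own for each gene) of the 9 genes by hours after exposure (horizontal axis), 1 point per library and 1 bar per group mean, coloured by exposure. SLC30A10 stepped down from 6 to 24 h in every exposure and its bPEI libraries were the highest at 24 h, and the 3 citrate libraries of SLC31A1 at 12 h lay under all the others of that time.

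**Figure D2:**
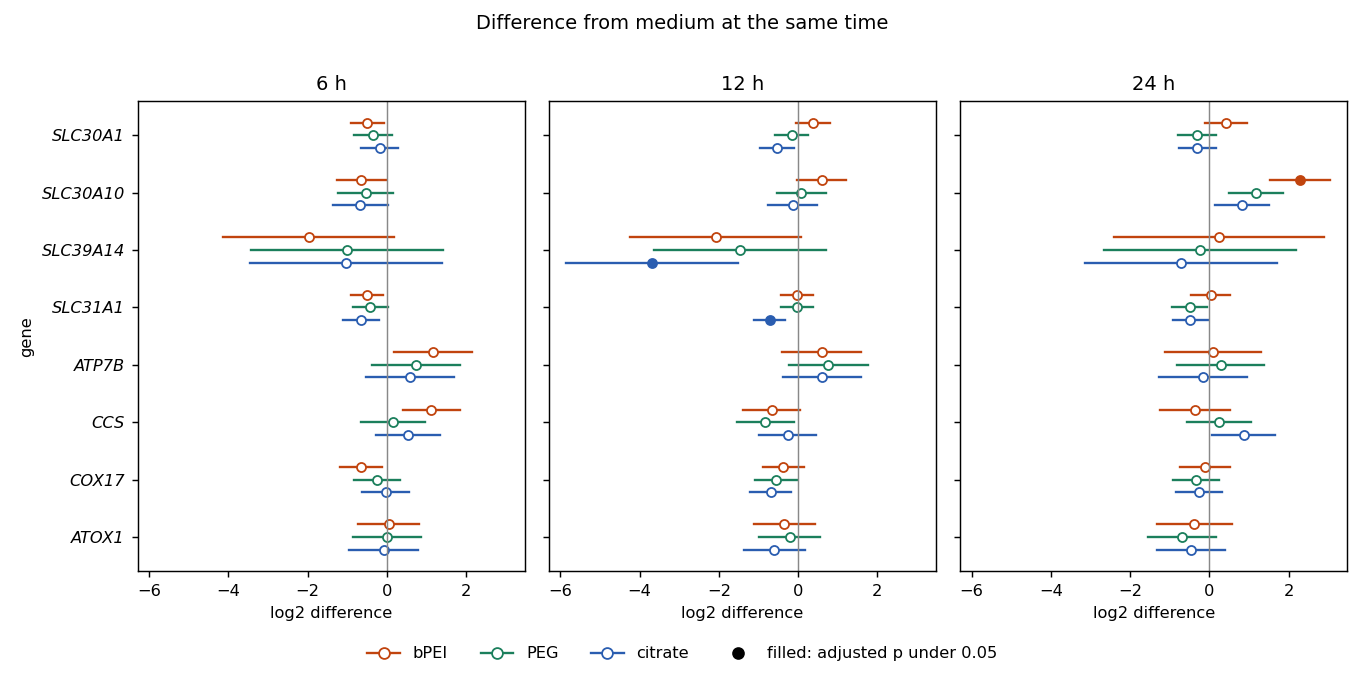
Difference of each coating from medium at the same time (horizontal axis, log2 difference; 95% confidence intervals) for the 8 tested genes, 1 panel per time. Filled points passed an adjusted p of 0.05: SLC39A14 and SLC31A1 with citrate at 12 h, below 0, and SLC30A10 with bPEI at 24 h, above 0.

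Most calls on these genes were between times. Over 12 comparisons of times within an exposure, 33 of 96 tests of members passed, against 13.5% of tests over all genes. Of these, 15 were higher and 18 lower at the later time, beside 6.4% and 7.06% over all genes. From 6 to 12 h, 3 of the 8 tested members changed in medium, 6 with bPEI, 3 with PEG and 2 with citrate, beside 11.8%, 28.7%, 9.82% and 5.08% of all tested genes. From 12 to 24 h, 2 changed in medium, 0 with bPEI, 4 with PEG and 2 with citrate, beside 18.3%, 3.37%, 14.8% and 11.7%. From 6 to 24 h the counts were 3, 4, 3 and 1, beside 18.6%, 17.6%, 9.96% and 11.7%. SLC30A10 made up 11 of the 33 and SLC30A1 8, and neither SLC39A14 nor ATOX1 passed in any. Libraries of different times may differ technically as well, which was not tested, and the medium series is the reference for what happened without particles. The fibroblast marker sum, nearly all of it PDGFRB, was also higher at 12 h, from 283 to 411 over the 12 libraries of that time, against 45.5 to 148 at 6 h. The hepatocyte sum, most of it ALB on average, was in medium 347490 to 385690 at 6 h, 277960 to 293980 at 12 h and 197940 to 258610 at 24 h. That is a descending order like that of SLC30A10, whose fall was far larger. The PEG sum descended too. With bPEI the sum overlapped between 6 h (312320 to 396440) and 12 h (296610 to 317790). With citrate it overlapped between 12 h (176830 to 188010) and 24 h (158900 to 204050). SLC30A10 did not overlap at those steps. The leukocyte sum, nearly all of it LYZ, was 1872 to 3171, 4914 to 5276 and 6202 to 6861 with bPEI at 6, 12 and 24 h. That stepwise rise was not shared by the other exposures. In medium the sum was 3937 to 4357, 4986 to 5528 and 4080 to 8326. With PEG it was 2348 to 2931, 3675 to 3881 and 3400 to 4855. With citrate it was 2696 to 3194, 2495 to 3060 and 3657 to 4682. The part of these markers in the time differences was not tested.

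**Figure D3:**
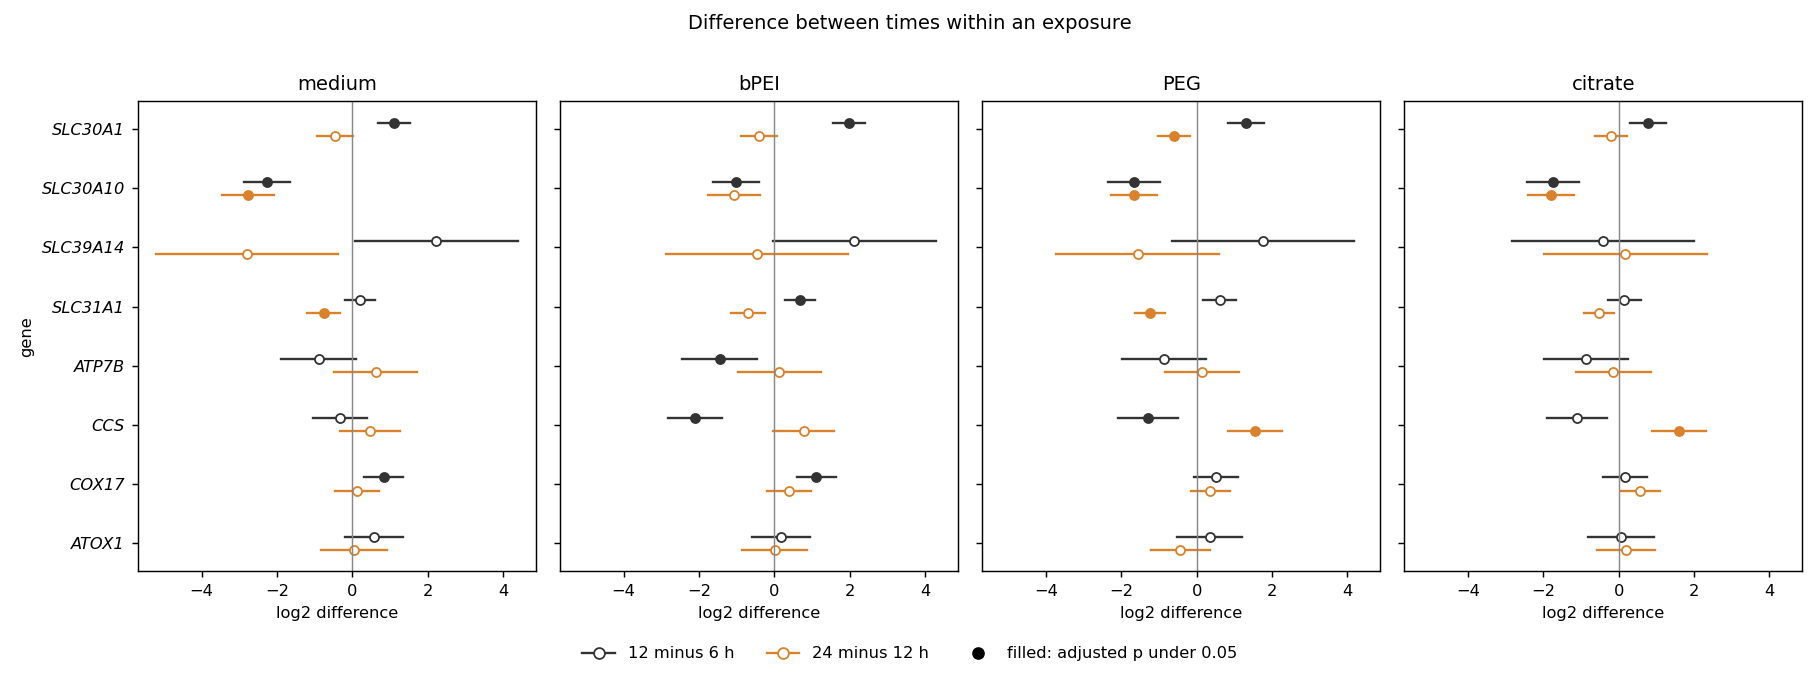
Difference between times within each exposure (horizontal axis, log2 difference with 95% confidence intervals) for the 8 tested genes, 1 panel per exposure. Filled points passed an adjusted p of 0.05. SLC30A1 lay above 0 from 6 to 12 h in all 4 exposures, and SLC30A10 lay below 0 at both steps in all 4, with only the bPEI step from 12 to 24 h open.

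SLC30A1 (ZnT1) sits in the plasma membrane and exports zinc from the cytosol. It lies on chromosome 1, 211571568 to 211578742, minus strand, in the GRCh38 annotation. In medium its values were 789.9, 853 and 793 at 6 h, 1404, 2194 and 1778 at 12 h, and 1662 and 1003 at 24 h. With bPEI they were 708, 412 and 662 at 6 h, 2249.6, 2409.9 and 2224 at 12 h, and 1700.5 and 1755 at 24 h. Every library at 12 h exceeded every library at 6 h within each exposure, and bPEI at 12 h was the highest group of the 12, above all libraries of the others.

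With PEG the values of SLC30A1 were 767 and 526 at 6 h, 1638, 1907 and 1244 at 12 h, and 1032, 1144 and 945 at 24 h. With citrate they were 732 and 698 at 6 h, 1145, 1152 and 1361 at 12 h, and 1084, 1084 and 983 at 24 h. The citrate values at 12 h lay below all 3 medium values of that time. SLC30A1 rose from 6 to 12 h in medium (log2 difference 1.12, SE 0.21, adjusted p = 0.0003733), with bPEI (1.99, SE 0.21, adjusted p = 6.106e-08), with PEG (1.31, SE 0.23, adjusted p = 0.0003804) and with citrate (0.77, SE 0.23, adjusted p = 0.04949). Of these, the citrate rise was lost in 7 of 14 alternatives, without any of its 5 libraries among them. Whether the rise differed between exposures was tested by the interaction of exposure and time, which SLC30A1 missed (adjusted p = 0.2172) but passed without medium replicate A of 24 h (adjusted p = 0.02357).

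No coating gave a called difference from medium in SLC30A1. The largest was with citrate at 12 h, 1219 ± 123 (n = 3) against 1792 ± 395 (n = 3), a log2 difference of -0.54 (95% interval -0.96 to -0.11, limma adjusted p = 0.1216), which was called in 2 of 15 alternatives. With bPEI at 12 h the mean was 2294 ± 100.8 (n = 3), a difference of 0.38 from medium (-0.05 to 0.81). These 2 groups, on either side of medium, differed from each other: SLC30A1 was lower with citrate than with bPEI at 12 h by 0.92 on the log2 scale (SE 0.21, limma adjusted p = 0.02274). Leaving out any bPEI library of 12 h, or citrate replicate A or B, ended that call, with an adjusted p of up to 0.1366 and a log2 difference between -1.0 and -0.83.

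That was the only member among 72 tests between coatings, where 0.195% of tests over all genes passed, and 1.39% of genes in that comparison. At 24 h SLC30A1 stood at 1728 ± 38.4 (n = 2) with bPEI, above all 6 libraries of the other coatings. The differences, -0.72 for citrate (95% interval -1.20 to -0.24) and -0.74 for PEG (-1.21 to -0.26), did not pass (limma adjusted p = 0.226 and 0.4319). Both pairs passed without bPEI replicate B of 6 h and medium replicate B of 24 h, which earlier work on these data had set aside and which are in neither pair, and citrate also passed with the spread of only its groups. SLC30A1 from 6 to 24 h was higher in medium, bPEI and PEG, and fell with PEG from 12 to 24 h (-0.60, SE 0.21, limma adjusted p = 0.04881). Of these the bPEI rise (1.58, adjusted p = 1.781e-05) held in all 14 alternatives. The medium rise was lost in 9 of 14, among them with no filter, edgeR, the spread of only its groups or 1 variance weight per group, and without any medium library of 6 h or replicate A of 24 h. The PEG rise was lost in 7 of 14, among them with no filter, edgeR or the spread of only its groups, and without replicate C of 6 h or A or B of 24 h. The PEG fall was lost in 9 of 15, among them with no filter, equal totals or the spread of only its groups, and without replicate A or B of 12 h or any PEG library of 24 h.

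**Figure D4:**
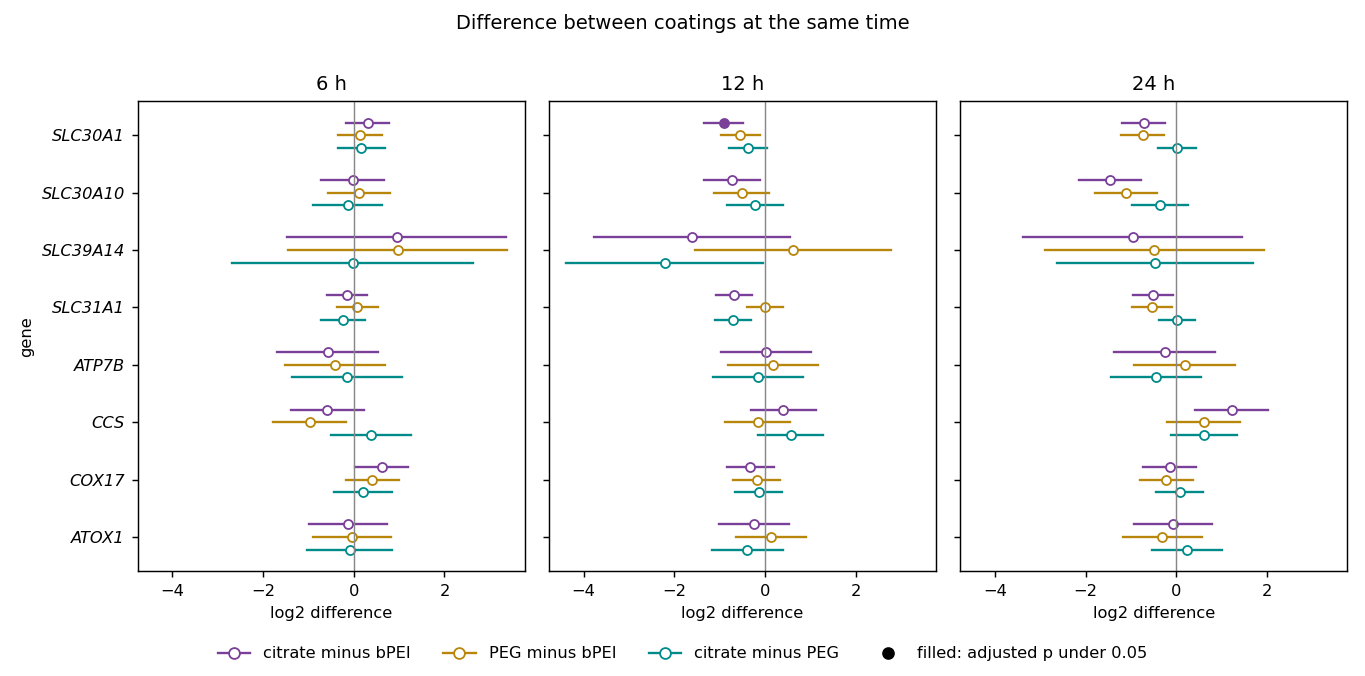
Difference between coatings at the same time (horizontal axis, log2 difference with 95% confidence intervals) for the 8 tested genes, 1 panel per time. The one filled point, past an adjusted p of 0.05, is SLC30A1 at 12 h, lower with citrate than with bPEI.

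SLC30A10 belongs to the zinc exporter family by sequence and is known mainly as a manganese exporter of liver and gut. It spans chromosome 1, 219685427 to 219958647, minus strand. It had the widest range of the 8 tested members over the 12 group means, 5.03 on the log2 scale, a range exceeded by 1.43% of tested genes. In medium its values were 1198, 993 and 904 at 6 h, 164, 224 and 259.9 at 12 h, and 35.3 and 26.1 at 24 h. The groups of the 3 times did not overlap, and the mean at 6 h was 33.6 times that at 24 h, which rests on 34 reads.

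SLC30A10 fell in medium from 6 to 12 h (log2 difference -2.27, SE 0.30, limma adjusted p = 3.646e-06) and again from 12 to 24 h (-2.77, SE 0.34, adjusted p = 5.455e-07). The particle-treated cells had the same order of times. With bPEI its values were 824, 496 and 688 at 6 h, 302, 332 and 329.8 at 12 h, and 145 and 160.0 at 24 h. With PEG they were 639 and 784, then 194, 301 and 192, then 73.5, 41.9 and 110.0. With citrate they were 762 and 544, then 136, 249 and 209.7, then 58.3, 36.4 and 76.3. Under each coating the values at 6 h lay above those at 12 h, which lay above those at 24 h, and SLC30A10 fell at every step but 1. The exception was bPEI from 12 to 24 h, with a difference of -1.07 (95% interval -1.76 to -0.38, adjusted p = 0.07303), called in 3 of 14 alternatives. Of the 11 falls, the 6 to 12 h steps with bPEI and with citrate were each lost without 1 library, bPEI replicate A (adjusted p = 0.05436) and citrate replicate A (adjusted p = 0.05439) at 6 h.

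At 24 h SLC30A10 was higher with bPEI, 152 ± 10.9 (n = 2), than in medium, 30.7 ± 6.50 (n = 2), which is 4.96 times the mean (log2 difference 2.29, SE 0.37, limma adjusted p = 0.0002079). Both bPEI libraries exceeded both medium libraries. The medium values rest on 22 and 12 reads, in the group with the largest residual variance, and the bPEI values on 167 and 233 reads. The call held in 12 of 13 alternatives, and was lost with the spread estimated from only those 4 libraries (adjusted p = 0.8508). With PEG at 24 h the mean was 75.2 ± 34.1 (n = 3), a difference of 1.18 from medium (95% interval 0.49 to 1.86, limma adjusted p = 0.0511), and with citrate 57.0 ± 19.95 (n = 3), 0.83 (0.14 to 1.51, adjusted p = 0.1766). The PEG difference was called in 4 of 14 alternatives: with a mean of at least 20, with equal totals, and without medium replicate A or PEG replicate B of 24 h (lowest adjusted p = 0.01815). All 8 particle libraries at 24 h thus lay above both medium libraries. At 6 h the order was the opposite: all 7 particle libraries, at 496 to 824, lay below all 3 medium libraries, at 904 to 1198, with log2 differences of -0.65, -0.53 and -0.67 for bPEI, PEG and citrate that did not pass (limma adjusted p = 0.2415, 0.685 and 0.4752).

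The difference of SLC30A10 from medium changed with time. It was the 1 member past the test of the interaction between exposure and time (limma F test, adjusted p = 0.03388), where 0.665% of tested genes passed. The difference between bPEI and medium was larger at 24 h than at 6 h by 2.93 on the log2 scale (SE 0.48, adjusted p = 0.0004464), in a comparison where 5.79% of genes passed. The F test kept its call in 30 of 40 alternatives, with adjusted p from 0.006938 to 0.205. It was lost without any one of the 3 medium libraries of 6 h, medium replicate B of 24 h, bPEI replicate B or C of 12 h, or either bPEI library of 24 h, as well as without both set-aside libraries and with a separate variance weight per group. Between coatings at 24 h, SLC30A10 was lower with citrate than with bPEI by a difference of -1.46 (95% interval -2.15 to -0.77), which missed the threshold (limma adjusted p = 0.05142). It was called in 5 of 14 alternatives, among them the pseudocount of 5 and leaving out citrate replicate C of 24 h (lowest adjusted p = 0.008167). PEG against bPEI was -1.11 (-1.80 to -0.42, adjusted p = 0.364).

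SLC39A14 (ZIP14) brings zinc, manganese and non-transferrin iron into hepatocytes. Its reads were few, with 9 of 32 libraries at 0 and no library over 53 reads. Its mean over all libraries was 5.49, and without the medium libraries of 12 h it would have lain under the filter of 5. The gene was thus tested only through the group that the citrate difference below is taken from. At 12 h the values were 27.3, 29.7 and 14.9 in medium, from 117 reads, and 0, 0 and 5.52 with citrate, from 5 reads. The highest citrate library lay under the lowest medium library. The means were 24.0 ± 7.96 (n = 3) and 1.84 ± 3.19 (n = 3), and SLC39A14 was lower with citrate by a log2 difference of -3.68 (SE 1.06, limma adjusted p = 0.03351).

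The call on SLC39A14 ended under edgeR on the recovered reads and without any medium library of 12 h or citrate replicate A or B, with an adjusted p of up to 0.1525. The log2 difference ranged from -4.58 to -2.14 over the alternatives. With bPEI at 12 h the values were 6.46, 5.96 and 2.51, and with PEG 3.73, 8.16 and 14.1. These, too, lay under all 3 medium libraries of that time, with differences of -2.08 (95% interval -4.24 to 0.08) and -1.47 (-3.63 to 0.70) that did not pass (limma adjusted p = 1 and 0.7203). Medium at 12 h was the highest group of the 12, and outside it the libraries ran from 0 to 14.1. No time step passed for SLC39A14, including 6 to 12 h in medium (2.23, 95% interval 0.07 to 4.40, adjusted p = 0.182), which was called in 2 of 14 alternatives.

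SLC39A10 (ZIP10) imports zinc at the plasma membrane. It was at 0 in 19 of 32 libraries and had at most 20 reads in any. At 12 h the medium libraries held 6.38, 7.30 and 6.13 normalized reads, 31 reads in all, and the PEG libraries held 0. Taking 3 reads over the 3 PEG libraries as the limit that a count of 0 allows, the medium mean was 8.86 times that limit. This takes the medium mean as exact and leaves out the spread among libraries. With bPEI the values at 12 h were 2.77, 0.993 and 2.51, and with citrate 0.779, 0.874 and 0, from 2 reads. All 9 particle libraries at 12 h lay under all 3 medium libraries, the same order as in SLC39A14. In the fit without a filter no coating at 12 h passed against medium (limma log2 difference -2.92, adjusted p = 0.1087 for PEG, and -2.34, adjusted p = 0.1019 for citrate). In that fit SLC39A10 fell in medium from 12 to 24 h (-2.92, SE 0.91, limma adjusted p = 0.0282), to 0 in both libraries, where 0 reads allowed up to 4.81 and 6.52 normalized reads. At 6 h the medium libraries held 0, 2.15 and 10.97, so the gene was near its limit of detection there as well.

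SLC31A1 (CTR1) is the high-affinity copper importer of the plasma membrane, on chromosome 9, 113221562 to 113264492, plus strand. CDC26 overlaps it on the opposite strand. At 12 h its values were 652, 702 and 709.7 in medium, 669.6, 636 and 714 with bPEI, 653, 709 and 667 with PEG, and 369, 495 and 395 with citrate. The citrate libraries lay below all 9 others, and the other 3 groups overlapped. SLC31A1 was lower with citrate, 420.0 ± 66.5 (n = 3), than in medium, 688 ± 31.5 (n = 3), with a log2 difference of -0.72 (SE 0.20, limma adjusted p = 0.02402).

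Leaving out any medium library of 12 h, or citrate replicate A or C, ended that call on SLC31A1, with an adjusted p of up to 0.09788 and a log2 difference between -0.85 and -0.63. The hepatocyte marker sum, most of it ALB on average, was lower too. It was 176830 to 188010 in the citrate libraries of 12 h and 277960 to 293980 in medium. Changes of single markers are not given here. The leukocyte marker sum, nearly all of it LYZ, was also lower, 2495 to 3060 against 4986 to 5528. With PEG at 12 h, where SLC31A1 overlapped with medium, the hepatocyte sum was 206830 to 234250 and the leukocyte sum 3675 to 3881. The markers' part in the citrate differences was not tested. Against the other coatings at 12 h the differences were of like size but did not pass, -0.69 from bPEI (95% interval -1.09 to -0.29, limma adjusted p = 0.0616, called in 4 of 15 alternatives) and -0.70 from PEG (-1.10 to -0.30, adjusted p = 0.2597). For bPEI and PEG against medium at 12 h, the intervals were -0.43 to 0.37 and -0.42 to 0.37. At 6 h SLC31A1 stood at 534, 627 and 618 in medium and at 392 and 361 with citrate, with no overlap (-0.65, 95% interval -1.10 to -0.21), which did not pass (adjusted p = 0.2277).

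SLC31A1 fell from 12 to 24 h in medium, to 456 and 359 (log2 difference -0.76, SE 0.22, limma adjusted p = 0.0131), and with PEG, to 248, 283 and 336 (-1.23, SE 0.20, adjusted p = 4.012e-05). It rose from 6 to 12 h with bPEI, from 412, 329.9 and 539.9 (0.68, SE 0.20, adjusted p = 0.009244). With bPEI at 24 h it stood at 441 and 390.0, within the span of medium, and with citrate at 348, 282 and 248. The PEG fall held in all 15 alternatives. The bPEI rise was lost without bPEI replicate B of 6 h (adjusted p of up to 0.08638), and the medium fall without medium replicate B of 24 h, with only the groups compared or with 1 variance weight per group (up to 0.2669).

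ATP7B, the copper-transporting ATPase mutated in Wilson disease, lies on chromosome 13, 51930436 to 52012125, minus strand. Its values at 6 h were 35.8, 43.1 and 37.9 in medium and 78.1, 137 and 63.6 with bPEI, 69.1 and 62.2 with PEG, and 50.8 and 67.7 with citrate. All 7 particle libraries lay above all 3 medium libraries at 6 h, but no difference passed. The log2 differences were 1.16 for bPEI (95% interval 0.17 to 2.15, limma adjusted p = 0.187), 0.74 for PEG (-0.37 to 1.85) and 0.58 for citrate (-0.52 to 1.69). At 12 and 24 h the values ran from 15.1 to 63.1 over all exposures. ATP7B fell from 6 to 12 h with bPEI, to 28.6, 36.7 and 29.5 (-1.46, SE 0.49, adjusted p = 0.02356). That call was lost without bPEI replicate B of 6 h, or replicate A or C of 12 h (adjusted p of up to 0.1475).

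CCS delivers copper to the superoxide dismutase SOD1. It lies on chromosome 11, 66592821 to 66606019, plus strand. At 6 h it stood at 65.2, 77.6 and 49.4 in medium and at 98.3, 202 and 131 with bPEI, where no library overlapped (log2 difference 1.12, 95% interval 0.40 to 1.84, limma adjusted p = 0.08002). Leaving out bPEI replicate A gave a call there (adjusted p = 0.03675). With bPEI at 12 h CCS stood at 44.3, 39.2 and 17.6, and it fell from 6 to 12 h by 2.10 on the log2 scale (SE 0.35, adjusted p = 5.491e-05), a call that held in all 15 alternatives.

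CCS had its lowest mean at 12 h in every exposure. With PEG it fell from 57.2 and 85.2 at 6 h to 25.4, 26.1 and 33.0 at 12 h (log2 difference -1.29, SE 0.40, limma adjusted p = 0.034) and rose to 65.4, 97.8 and 90.6 at 24 h (1.54, SE 0.35, adjusted p = 0.002674). With citrate it stood at 80.6 and 103 at 6 h and at 35.1, 52.4 and 39.7 at 12 h, and rose to 137, 116 and 132 at 24 h (1.59, SE 0.35, adjusted p = 0.002776). Both rises held in all 15 alternatives, and the PEG fall was lost in 6 of 14, without either PEG library of 6 h or PEG replicate A or B of 12 h among them (adjusted p of up to 0.2667). In medium the values were 45.2, 41.5 and 67.4 at 12 h and 56.2 and 87.0 at 24 h, and no step passed. With bPEI CCS was lower at 24 h, 49.4 and 59.7, than at 6 h (-1.33, SE 0.40, adjusted p = 0.01889). That was lost without bPEI replicate B of 6 h or either bPEI library of 24 h, and with the spread of only its groups or 1 variance weight per group (up to 0.1369). At 24 h all 3 citrate libraries lay above every library of the other exposures, with a difference of 0.86 from medium (95% interval 0.06 to 1.67, adjusted p = 0.2375) and 1.22 from bPEI (0.42 to 2.03, adjusted p = 0.2224).

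COX17 carries copper to the mitochondrial chaperones that build cytochrome c oxidase. It lies on chromosome 3, 119654513 to 119677454, minus strand, and POPDC2 overlaps it on the same strand. In medium its values were 263, 256 and 205 at 6 h, 444, 442 and 404 at 12 h, and 658 and 339 at 24 h. With bPEI they were 184, 83.7 and 229.8, then 339.9, 309 and 349, then 419.9 and 457. In both exposures every library of 12 and 24 h lay above every library of 6 h. COX17 rose from 6 to 12 h in medium (log2 difference 0.84, SE 0.26, limma adjusted p = 0.02931) and with bPEI (1.12, SE 0.26, adjusted p = 0.001499), and from 6 to 24 h in medium, with bPEI and with PEG (0.98, 1.51 and 0.89, adjusted p = 0.01415, 0.0004603 and 0.04262).

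The bPEI rise of COX17 at 12 h held in all 15 alternatives. The medium rise at 12 h was lost without any of its 6 libraries, that at 24 h without medium replicate C of 6 h or A of 24 h, with the spread of only its groups or with 1 variance weight per group, the PEG rise with no filter or without either PEG library of 6 h or replicate A or B of 24 h, and the bPEI rise at 24 h with the spread of only its groups (adjusted p = 0.08773). At 12 h the particle libraries of COX17 lay under the 3 medium libraries throughout, at 309 to 349 with bPEI, 279 to 307 with PEG and 236 to 290.1 with citrate. None of those differences passed. The log2 differences were -0.37 (95% interval -0.89 to 0.15), -0.56 (-1.08 to -0.04) and -0.70 (-1.22 to -0.17), with limma adjusted p = 1, 0.4303 and 0.1009. The citrate difference was called in 3 of 15 alternatives, without both set-aside libraries, with the spread of only its groups and with 1 variance weight per group (lowest adjusted p = 0.005662).

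ATOX1 hands copper to ATP7A and ATP7B. It lies on chromosome 5, 151742316 to 151772532, minus strand, and G3BP1 overlaps it on the opposite strand. Its 32 values ran from 44.4 to 167 with a median of 100.3, and the 12 groups overlapped with their neighbours in rank throughout. Its range over group means was 0.70 on the log2 scale, and 96.4% of tested genes had a larger one. No comparison of ATOX1 passed. The largest difference from medium was -0.69 with PEG at 24 h (95% interval -1.55 to 0.18, limma adjusted p = 0.4447). The lowest value of all, 44.4, came from bPEI replicate B at 6 h.

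That library also held the lowest values of SLC30A1 (412) and COX17 (83.7) and the highest of ATP7B (137) and CCS (202) among all 32. Leaving out medium replicate B of 24 h gave SLC30A1 log2 differences from medium at 24 h of -0.68 with PEG and -0.66 with citrate. For COX17 they were -0.81 and -0.73. These 4 differences rest on which medium library of the pair is left out. Neither of a pair can be said to be the one that lies away. Without medium replicate A in its place, they turned sign, to 0.05 and 0.07 for SLC30A1 and 0.15 and 0.22 for COX17. Medium at 24 h is 1 library in either case, assumed to vary like the other groups.

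Few other genes of zinc and copper handling passed against medium. Of 4 other zinc exporters and 8 other zinc importers tested, none passed in any of the 9 comparisons. Among 5 metallothioneins and MTF1, 1 of 54 tests passed (1.85%), and among 13 other copper genes 1 of 117 (0.855%), both below the 2.31% over all genes. At 12 h the metallothionein MT1G was higher with bPEI, 437 ± 45.7 (n = 3), than in medium, 195 ± 15.4 (n = 3), by 1.15 on the log2 scale (SE 0.24, limma adjusted p = 0.04614). SLC25A3, which carries phosphate and copper into mitochondria, was lower with citrate at 12 h, 297 ± 12.4 (n = 3) against 685 ± 85.2 (n = 3), by -1.19 (SE 0.34, adjusted p = 0.03361). The metallothioneins are near-identical, so a detector may count a paralog.

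The summed level of the metallothioneins and MTF1 was 1708 to 1814 in the medium libraries of 6 h, 249 to 292 at 12 h and 5280 to 5788 at 24 h. At 6 h all particle libraries lay above medium (bPEI 1830.5 to 2389, PEG 1876.5 to 2590, citrate 2221 to 2383). They did so at 12 h too (538 to 658, 367 to 556 and 347 to 559). At 24 h bPEI and PEG overlapped with medium, and citrate lay below it (3557 to 3784.5). The sums, mostly MT1G on average, were not tested. Above 0 lay all 6 tested genes with bPEI at 12 h and 4 with PEG or citrate, but at 6 h 2, 3 and 3. In medium 3 of the 6 tested genes of this list fell from 6 to 12 h, 4 rose from 12 to 24 h and 2 rose from 6 to 24 h, beside 11.8%, 18.3% and 18.6% of all tested genes in either direction. SLC30A1 rose from 6 to 12 h and from 6 to 24 h. Over all 12 comparisons of times, 33 of 72 tests of this list passed (45.8%), 5 of 48 for the other zinc exporters (10.4%), 18 of 96 for the other importers (18.8%) and 10 of 156 for the other copper genes (6.41%), beside 13.5% over all genes. MTF1 itself had a mean of 19.2 normalized reads.

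The genes most like each member were taken by Pearson's r of log2 group means over the 12 groups, as a description with no test, since the groups share times and libraries. For SLC30A10 these were GSTA1 (r = 0.99), a glutathione transferase of liver, and AKR1D1 (r = 0.99), an enzyme of bile acid synthesis, both with a group mean of 0 in their lowest group. For SLC30A1 they were TIAL1 (0.97) and PHYHIPL (0.97), for SLC31A1 FYTTD1 (0.97) and NUCB2 (0.96), and for SLC39A14 SEC24A (0.92) and SETD3 (0.91). For ATP7B they were DGAT2 (0.95) and PRDM11 (0.95), for CCS SLC9A3R2 (0.93) and COPE (0.93), for COX17 PTBP3 (0.98) and OSMR (0.97), and for ATOX1 OGT (0.90) and LHFPL2 (0.89).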

How the data were processed

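TempO-Seq libraries were made from HepG2 lysates, per the labels' protocols. The deposited table holds normalized signal per gene symbol. Multiplied by 1 factor per library, 100% of the deposited signal values came out as whole reads (tolerance 0.01 reads), and those factors match median-of-ratios size factors. Aligner, genome build, counting and combination of detectors were not given in the sources used here, nor whether low counts were removed. The plan named a different main test for raw counts. The deposited values were normalized, so the test for normalized values was used.

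After log2(value + 1), genes with a mean of at least 5 were fitted by limma (3.58.1, R 4.3.3) with 12 group means, an intensity trend, robust moderation and 20 residual degrees of freedom. Genes below that, 3809, were left out. A coating was compared with medium and with the other coatings at its time, and times within an exposure. edgeR (4.0.16) quasi-likelihood tests on the recovered reads were an alternative. Others were the pseudocount (5), the filter (none, or 20), equal totals, the replicate letter as a block, the spread of only the groups compared, 1 variance weight per group, and leaving out libraries. The fits were tested on simulated data. No 2 replicates were identical. In each of 28 replicate pairs the counts differed by more than sampling noise (lowest chi-square per degree of freedom 4.12).

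All 9 members are described, with other list genes named where they passed against medium, and the 2 genes most like each tested member. The members and lists were chosen with earlier results of these data known. Positions are from the GENCODE annotation of GRCh38 and promoters from RefSeq (GRCh38.p14). Printed intervals are 95%.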

Additional observations from a re-analysis of the deposited data

Results flagged for a closer look

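SLC30A10 is listed here because its differences from medium were not the same at every time. Its limma F test of the interaction between exposure and time gave an adjusted p of 0.03388. The difference between bPEI and medium was larger at 24 h than at 6 h by 2.93 on the log2 scale (SE 0.48, adjusted p = 0.0004464). At 6 h the 3 bPEI libraries lay below the 3 medium libraries, and at 24 h both bPEI libraries lay above both medium libraries. The medium libraries of 24 h held 34 reads of the gene in all. Groups held 3 libraries or fewer, so single libraries were not tested as outliers.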

How the results depend on the processing

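None of the 37 calls on members changed sign under any alternative, and 18 of the 33 calls between times held in every alternative that touched their groups. None of the 3 calls against medium, nor the 1 between coatings, held in all. Against medium the count of 3 became 9 without both set-aside libraries and 5 with 1 variance weight per group. Between coatings the count of 1 became 2 with a pseudocount of 5, 2 with a mean of at least 20, 2 with the replicate block, 4 where the spread came from the compared groups alone, 4 with 1 variance weight per group, and 5 without those libraries. The interaction count of 1 became 0 without both libraries and 0 with 1 variance weight per group. Leaving out each of the 32 libraries in turn gave 1 to 5 against medium, 0 to 3 between coatings, 27 to 39 between times and 0 to 2 for the interaction, where SLC30A1 was the second gene without medium replicate A of 24 h. The cause was not tested, though each such fit has fewer samples. The share over all genes in each alternative is not given here, so a changed count is not read as a result about the members. A group left with 1 library is assumed to vary like the others.

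With the replicate letter as a block, the counts were 3 against medium, 2 between coatings, 29 between times and 1 for the interaction. The letters were not taken as pairs: residual correlations between libraries of the same letter had a median of 0.0057 and ran from -0.16 to 0.32 over 156 of 468 pairs, beside a median of -0.0033 for the other pairs. As a hint from the data the other way, 17 of 32 libraries had their highest mean residual correlation, by letter, with their own letter in other groups. No expected count was worked out for this. With equal library totals the median of all genes at 24 h moved from 0.10 to 0.20 for bPEI against medium, from 0.05 to 0.18 for PEG and from 0.04 to 0.21 for citrate. SLC39A10 and SLC39A14 are limited by their few reads, and the fold of SLC39A14 varies with the pseudocount.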
